A study of Mus musculus with 6 samples.

Results

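Collagens are the most abundant proteins of the extracellular matrix, and 44 genes for their chains were examined in muscle of mice bred to lack Igf2 in muscle fibres and of their controls. The members were every row of the deposited table whose gene name has the form Col, a type number, the letter a and a chain number, and whose annotation is protein coding. These were 44 of the 54532 genes in the table, made up of 11 fibrillar chains, 8 chains of basement membranes and 25 others. The test of genotype could be run on 41 of them, and Col9a3, Col10a1 and Col6a4 had too few counts. The question was whether the genotype changed the RNA of collagen chains, each of which was followed in all 6 libraries.

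RNA-seq libraries of muscle were made from 3 control and 3 Igf2 cKO samples, all from mice bred on a C57BL/6 background. Both groups carried Igf2 alleles with loxP sites around exon 2 on both chromosomes (Igf2f/f). The cKO animals were Mck-Cre+; Igf2f/f, with Cre under the muscle creatine kinase promoter of skeletal and heart muscle, and the controls were Mck-Cre-; Igf2f/f littermates. The muscle, the age and the sex are not named, and Cre in fibres leaves Igf2 intact in fibroblasts, endothelium and the other cells of the tissue. Counts of Igf2 were 60, 43 and 39 in controls and 33, 37 and 42 in cKO muscle, replicates 1 to 3 of each (log2 fold change -0.31 ± 0.25 SE, adjusted p = 0.751 by edgeR). A count summed over the gene does not show the deleted exon apart from the other exons. Total counts lay between 16184371 and 17905203 a library, and all 7 muscle fibre markers had counts in every library. These markers summed to 91675, 89364 and 110424 CPM (counts scaled to a common library size) in controls and to 86278, 71946 and 81065 CPM in cKO muscle, lower in every cKO library. Most of the sum came from Acta1 (33039 to 40707 CPM) and the fast myosin gene Myh4 (17313 to 46328 CPM). None of the 7 was called by edgeR, and 5 lay below 0. The fast myosin genes went both ways, with Myh1 and Myh2 above 0 (log2 fold change 0.34 and 0.26) and Myh4 at -0.54. In 2 of the 7, Ckm and Myh4, every cKO library lay below every control (7.67% of all genes tested). The part of fibre content in the collagen values was not tested.

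A collagen molecule is a helix of intertwined chains in which glycine recurs at regular steps. Fibrillar collagens (types I, II, III, V, XI, XXIV and XXVII) assemble into the fibres that carry force through tendon and the sheaths around muscle. Type IV collagen forms the meshwork of basement membranes, which wrap every muscle fibre and capillary, and types XV and XVIII are attached there. Type VI forms beaded filaments between basement membrane and fibrils, and its loss causes congenital muscular dystrophy in humans. FACIT collagens (such as XII, XIV and XXII) sit on the surface of fibrils, and a few types (XIII, XVII, XXIII, XXV) span the cell membrane. In muscle most of this RNA is made by fibroblasts, endothelium and other cells between the fibres. In a bulk sample, fewer cells of a type cannot be told apart from less RNA in each cell.

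Collagen RNA was dominated by a handful of chains. On the authors' FPKM scale, which divides a count by the listed gene length, 5 chains had a mean of 100 or more over the 6 libraries, 7 lay between 10 and 100, 15 between 1 and 10, and 17 below 1. At the top stood Col1a1 at a mean FPKM of 273, Col3a1 at 227, Col4a1 at 158, Col1a2 at 151 and Col4a2 at 115. At the bottom, the count of Col6a4 never passed 3 and that of Col10a1, a collagen of the cartilage growth plate, never passed 7. Col10a1 lies within Nt5dc1 on the opposite strand. Col1a1, Col1a2 and Col3a1 together held between 49.5% and 62.5% of all collagen CPM in a library, so any total over the family mostly reads these chains. Counted per length, fibrillar chains made up 56.9% of collagen FPKM, basement membrane chains 26.7% and the others 16.4%.

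**Figure D1:**
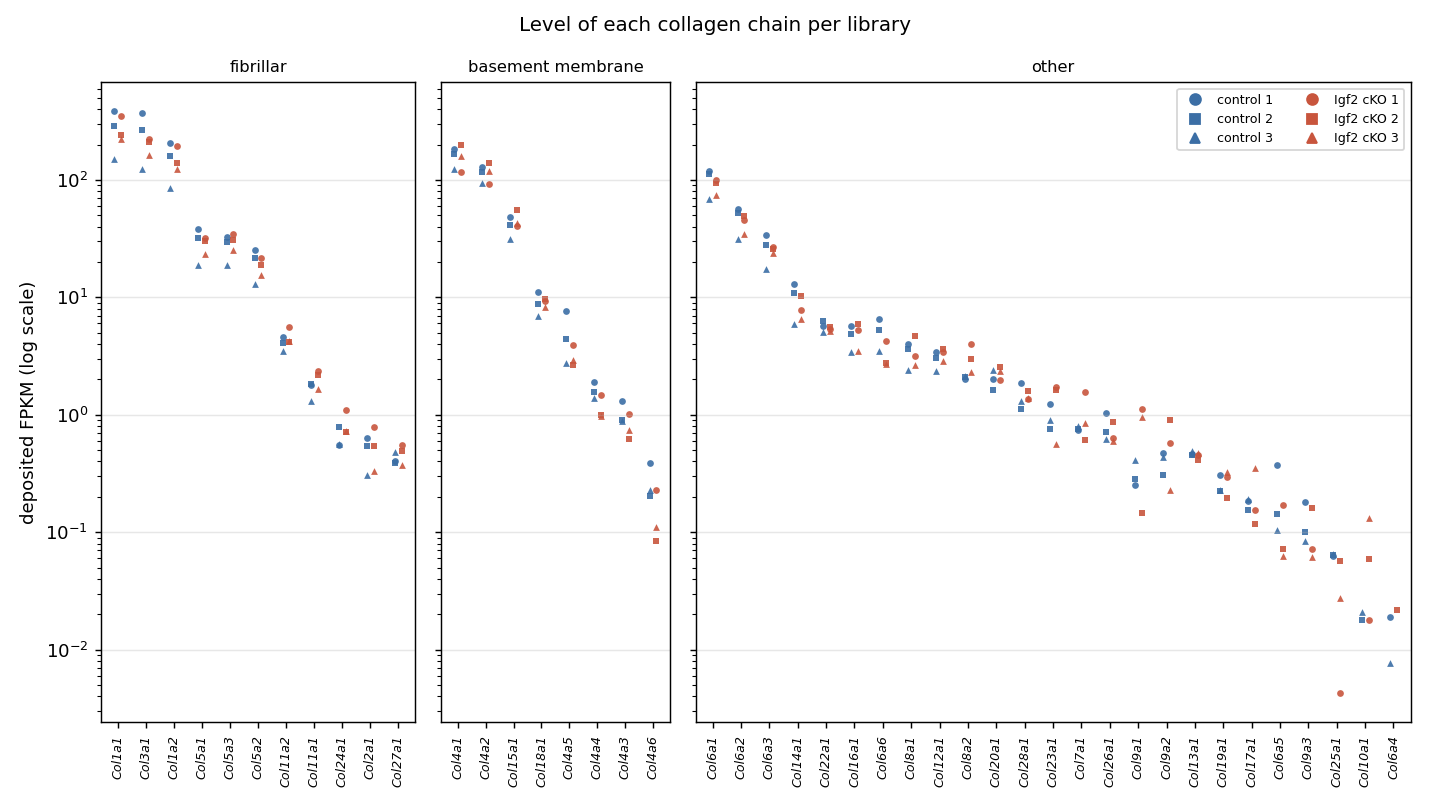
FPKM of the 44 collagen chains (log scale) in each of the 6 libraries, by class and ordered by mean, with control in blue and Igf2 cKO in red; the symbol marks the replicate number and values of 0 are not drawn. From Col1a1 (mean 273) down to the chains with a few counts, control and cKO points lie among each other for nearly every chain.

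None of the 41 tested chains was called at an adjusted p under 0.05 by edgeR, that is 0 of 41, where 0.249% of the 14867 genes tested were called (0.182% higher and 0.0673% lower). No chain was called by DESeq2 (1.35% of all genes), by limma-voom (0.229%), at an adjusted p under 0.1 (0.417%) or by the study's own threshold, which asks for more than a 2-fold difference at an unadjusted p below 0.05 (1.58%). At an unadjusted p under 0.05 there were 3 chains (Col8a2 higher, Col6a6 and Col4a4 lower), or 7.32% of the tested chains, against a background of 9.93% of all genes (5.11% higher and 4.82% lower). The 3 control libraries lay apart from the 3 cKO libraries in 2 chains, Col8a2 and Col25a1 (4.88%), where 15.5% of all genes tested had such groups (7.83% higher and 7.67% lower). Both shares lie near or below those of all genes and are no result about collagens. The median log2 fold change was 0.02 over the tested chains and 0.00 over all genes tested, with 22 chains above 0 and 19 below. For 38 of the 41 chains the 95% interval held 0, and for 29 it lay within -1 to 1, that is within a 2-fold change either way.

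**Figure D2:**
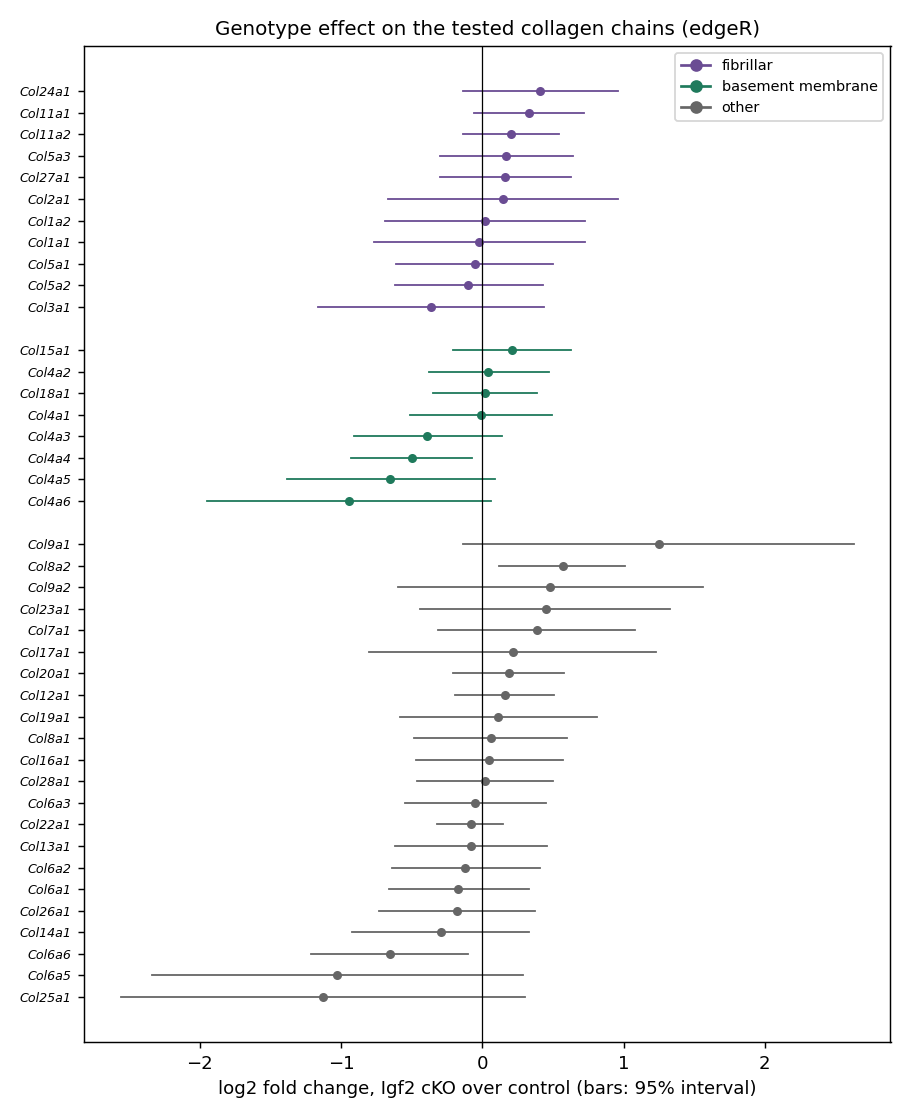
Log2 fold change of the 41 tested chains, Igf2 cKO over control (x axis), with 95% intervals from edgeR, grouped by class. The intervals of 38 chains cross 0, and the 3 that do not are Col8a2, Col6a6 and Col4a4.

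Type I and type III collagen, the main fibres of muscle connective tissue, differed more between libraries of the same genotype than between genotypes. Col1a1 (α1 chain of type I, ENSMUSG00000001506, chromosome 11, 94936224 to 94953042) stood at 2539, 1911 and 991 CPM in control replicates 1 to 3. The 3 cKO libraries had 2325, 1589 and 1454 CPM. All 3 cKO values fell inside the span of the controls, which itself was 2.56-fold from lowest to highest. On the log2 scale cKO muscle differed by -0.02 (SE 0.33, 95% interval -0.77 to 0.73, adjusted p = 0.99 by edgeR).

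Its partner Col1a2 (α2 chain, chromosome 6, 4504814 to 4541544) followed the same pattern over the libraries. It had 2563, 2002 and 1071 CPM in controls and 2449, 1738 and 1526 CPM in cKO muscle (log2 fold change 0.02 ± 0.31 SE, 95% interval -0.69 to 0.73, adjusted p = 0.99). Col3a1, the single chain of type III (chromosome 1, 45311538 to 45349706), had 3701, 2645 and 1228 CPM in controls and 2225, 2087 and 1592 CPM in cKO muscle. Here the groups overlapped too, and the control span was 3.01-fold. On the log2 scale the difference was -0.36 (SE 0.35, 95% interval -1.16 to 0.44, adjusted p = 0.806 by edgeR), and 0.02 without control replicate 1.

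In the type V chains the groups overlapped too. Type V collagen starts fibrils and sets their width, and its chains Col5a1 and Col5a2 had log2 fold changes of -0.05 ± 0.24 and -0.10 ± 0.23 (SE, adjusted p = 0.969 and 0.935 by edgeR). Col5a1 ran from 162 to 328 CPM in controls and from 200 to 276 CPM in cKO muscle. Col5a2 ran from 126 to 242 CPM in controls and from 150 to 211 CPM in cKO muscle, so that the control span enclosed the cKO span in both chains. Col5a3, another type V chain, averaged 185 ± 48.7 CPM in controls and 208 ± 34.4 CPM in cKO muscle (SD, n = 3 each, log2 fold change 0.17). Of the 11 fibrillar chains, 7 lay above 0 and 4 below, none was called, and the class median was 0.15.

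Cartilage-type fibrillar chains were low in every library. Col2a1, the main collagen of cartilage, had a mean of 4.64 ± 1.59 CPM in controls and 5.15 ± 2.15 CPM in cKO muscle (SD, n = 3 each). Col11a1 (log2 fold change 0.33, adjusted p = 0.593 by edgeR) and Col11a2 (0.20, adjusted p = 0.732), which join type II fibrils in cartilage and type V in other tissues, reached means of 26.6 and 32.1 CPM in cKO muscle. Among cartilage markers Matn1 had no count in any library and Acan at most 0.557 CPM, and 4 of the 5 markers had a count in every library. Their summed level ran from 1.57 to 3.57 CPM in controls and from 2.17 to 4.18 CPM in cKO muscle. Col24a1 (0.41, adjusted p = 0.63) and Col27a1 (0.16, adjusted p = 0.855), the remaining fibrillar chains, had means of 4.88 and 5.56 CPM in controls.

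Col4a1 and Col4a2, the chains of the type IV network found in basement membranes throughout the body, lie head to head on chromosome 8. In the deposited coordinates (GRCm38) Col4a1 runs from 11198423 to 11312826 on the minus strand and Col4a2 from 11312805 to 11449287 on the plus strand, with 21 bases between their starts. The promoter windows below are shown because both genes start in this one stretch of DNA. Both chains varied together over the 6 libraries (a 1.11-fold span of their FPKM ratio). For Col1a1 and Col1a2, on separate chromosomes, that span was 1.08-fold. The part of the shared stretch in these values was not tested. Each holds 250 bases before and 50 after the start that RefSeq gives (GRCm38.p6), 5′ to 3′ on the strand of its gene, at chr8:11312777-11313076 (minus) and chr8:11312555-11312854 (plus), and the windows share 78 bases. Capitals mark the motif CCAAT or its reverse complement ATTGG.
Col4a1: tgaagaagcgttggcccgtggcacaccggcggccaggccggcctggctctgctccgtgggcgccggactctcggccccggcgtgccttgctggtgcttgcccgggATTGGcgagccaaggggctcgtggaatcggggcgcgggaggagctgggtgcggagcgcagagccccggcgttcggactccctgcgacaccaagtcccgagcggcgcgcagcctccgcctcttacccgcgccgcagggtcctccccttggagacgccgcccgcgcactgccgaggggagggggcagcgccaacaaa
Col4a2: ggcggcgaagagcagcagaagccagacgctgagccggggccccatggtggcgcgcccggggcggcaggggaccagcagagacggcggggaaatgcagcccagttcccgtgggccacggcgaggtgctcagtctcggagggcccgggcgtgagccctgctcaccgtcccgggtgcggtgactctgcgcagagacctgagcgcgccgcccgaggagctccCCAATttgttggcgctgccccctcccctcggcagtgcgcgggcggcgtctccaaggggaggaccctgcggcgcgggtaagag
CCAAT on either strand was found in 37.4% of all 32851 windows and in 13 of the 38 windows of collagen genes (34.2%). GGGCGG on either strand was in 35.7% of all windows and in 23 of the 38 collagen windows (60.5%), and TATAAA in 13.6% and 5 of 38. Both type IV windows held CCAAT and GGGCGG on one strand or the other, and neither held TATAAA. RefSeq windows were found for 35 of the 44 genes, some with more than 1 start. A match here is a run of letters and no measured site.

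For both major type IV chains the spread among cKO libraries exceeded any difference between genotypes. Col4a1 stood at 1379, 1252 and 935 CPM in control replicates 1 to 3 and at 888, 1475 and 1183 CPM in cKO replicates 1 to 3. Col4a2 stood at 858, 778 and 624 CPM in controls and at 615, 924 and 792 CPM in cKO muscle. In both chains the highest and the lowest library were cKO replicates, number 2 and number 1. The log2 fold changes were -0.01 ± 0.22 (SE, 95% interval -0.51 to 0.49, adjusted p = 0.994 by edgeR) and 0.04 ± 0.19 (SE, 95% interval -0.38 to 0.47, adjusted p = 0.967).

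The 4 remaining type IV chains were far less abundant and all had log2 fold changes below 0, without passing the test. The α3, α4 and α5 chains build a network known from kidney and lung and from the synaptic part of the basement membrane of muscle fibres, and α5 with α6 another around smooth muscle. Col4a4 (chromosome 1, 82448423 to 82586849) had 20.5, 16.7 and 15.0 CPM in controls and 15.7, 10.7 and 10.5 CPM in cKO muscle. One cKO library reached into the control span. On the log2 scale it differed by -0.50 ± 0.19 (SE, 95% interval -0.93 to -0.07, unadjusted p = 0.0288, adjusted p = 0.43 by edgeR).

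Col4a3, which starts 72 bases from Col4a4 on the opposite strand, was at -0.39 ± 0.23 (SE, adjusted p = 0.637 by edgeR). Col4a5 had 51.8, 30.1 and 18.8 CPM in controls against 26.7, 18.1 and 19.7 CPM in cKO muscle, so control replicate 1 stood well above the rest (log2 fold change -0.65 ± 0.32 SE, adjusted p = 0.565). Its neighbour on the X chromosome, Col4a6, had between 11 and 58 counts a library with -0.94 ± 0.44 on the log2 scale (SE, adjusted p = 0.532). The ratio of Col4a4 to Col4a1 in FPKM ran from 0.00937 to 0.0113 in controls and was 0.0125, 0.0051 and 0.00622 in cKO replicates 1 to 3, so the groups overlapped in this ratio as well.

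Col15a1 and Col18a1 complete the basement membrane class. Col15a1, which is found in the basement membranes of muscle fibres and capillaries, had 307, 262 and 199 CPM in controls and 261, 355 and 274 CPM in cKO muscle, with overlapping groups (log2 fold change 0.21 ± 0.18 SE, adjusted p = 0.772 by edgeR). Col18a1, the source of the fragment endostatin, averaged 63.1 ± 14.7 CPM in controls and 64.0 ± 5.08 CPM in cKO muscle (SD, n = 3 each, log2 fold change 0.02 ± 0.16 SE, 95% interval -0.35 to 0.39). It overlaps Slc19a1 on the opposite strand, whose counts came to 14.8% of its own. Of the 8 chains of the class, 3 lay above 0 and 5 below, with a median of -0.20.

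**Figure D3:**
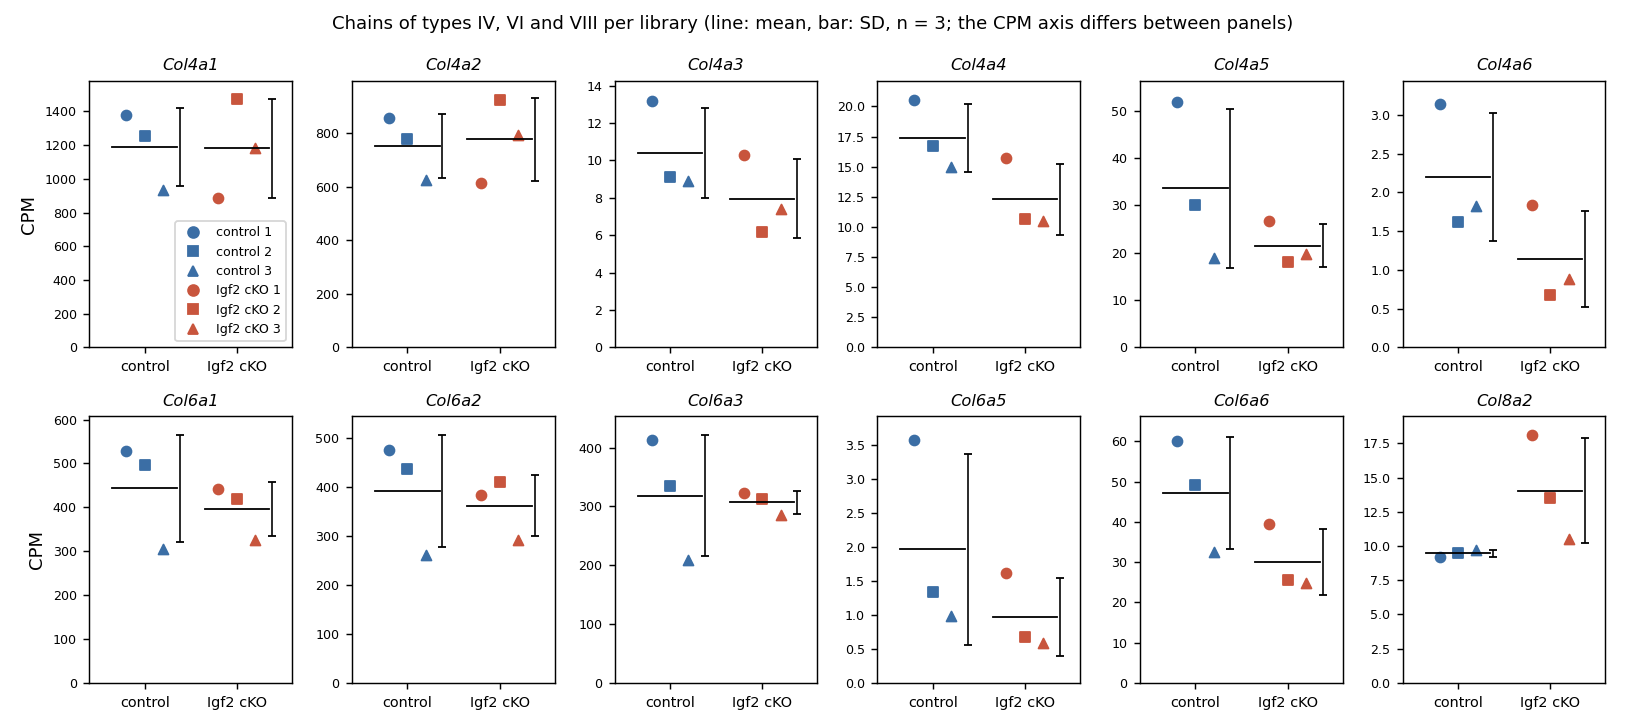
CPM of 12 chains of types IV, VI and VIII in each library, each panel with its own axis from 0; lines are group means and bars the SD of 3 libraries. Col4a1 and Col4a2 vary together over the libraries, the lower-abundance chains Col4a3 to Col4a6, Col6a5 and Col6a6 have lower cKO means with overlapping groups, and Col8a2 is the 1 panel in which the groups do not overlap.

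All 5 tested chains of type VI had log2 fold changes below 0, and none was called. Col6a1 had 529, 497 and 304 CPM in controls and 442, 418 and 326 CPM in cKO muscle (log2 fold change -0.17 ± 0.22 SE, adjusted p = 0.868 by edgeR). Its cKO libraries all lay within the control span. Col6a2 (-0.12 ± 0.23) and Col6a3 (-0.05 ± 0.22), whose chains assemble with Col6a1 in the common form of type VI, had adjusted p of 0.918 and 0.967.

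Col6a6, a chain that can stand in for α3, had the lowest p of the type. It stood at 60.0, 49.1 and 32.4 CPM in controls and at 39.4, 25.6 and 24.8 CPM in cKO muscle (log2 fold change -0.65 ± 0.25 SE, 95% interval -1.21 to -0.10, unadjusted p = 0.0267, adjusted p = 0.422 by edgeR). Control replicate 3 fell below cKO replicate 1. Of the settings tried, the fit with no filter on low counts gave Col6a6 an adjusted p of 0.0497, the 1 call of a collagen chain in any of them. That fit called 282 genes over the whole table, against 37 with the filter. Relative to Col6a3, Col6a6 was at 0.19, 0.192 and 0.202 in controls and 0.16, 0.107 and 0.114 in cKO muscle (FPKM ratio), which did not overlap. That ratio was 1 of 10 looked at after the values were seen, of which 2 did not overlap, and it was not tested. Col6a5 had between 10 and 66 counts a library (-1.03 ± 0.58 SE, adjusted p = 0.617).

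Col8a2, a short-chain collagen known from endothelium and the cornea, had the lowest p of all 41 chains. It was at 9.20, 9.51 and 9.68 CPM in control replicates 1 to 3 and at 18.1, 13.5 and 10.5 CPM in cKO replicates 1 to 3. Every cKO library lay above every control, though replicate 3 by under 1 CPM. On the log2 scale it differed by 0.57 ± 0.20 (SE, 95% interval 0.12 to 1.01, unadjusted p = 0.0182, adjusted p = 0.374 by edgeR), so the chain fails the correction. Its relative Col8a1 averaged 26.4 ± 6.59 CPM in controls and 27.6 ± 8.23 CPM in cKO muscle (SD, n = 3 each).

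None of the 8 tested FACIT chains was called. Col14a1 and Col12a1, which bind type I fibrils, had log2 fold changes of -0.29 ± 0.27 and 0.16 ± 0.15 (SE, adjusted p = 0.796 and 0.802 by edgeR). Col14a1 ran from 41.9 to 92.4 CPM in controls and from 46.4 to 72.4 CPM in cKO muscle. Col22a1, a collagen of the junction between muscle and tendon, was among the steadiest chains, at 53.0, 58.3 and 47.3 CPM in controls and 50.4, 51.7 and 47.7 CPM in cKO muscle. Its 95% interval of the log2 fold change ran from -0.32 to 0.15 (-0.08 ± 0.10 SE, adjusted p = 0.855). Tenocyte markers, which bear on how much tendon was in a sample, summed to between 806 and 975 CPM in controls and between 789 and 1225 CPM in cKO muscle, and all 8 had counts in every library.

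Col9a1, a FACIT of cartilage, was the chain with the highest fold change (1.25 ± 0.61 SE, 95% interval -0.14 to 2.63, adjusted p = 0.551 by edgeR). Its 24, 26 and 32 counts in control replicates 1 to 3 compare with 104, 12 and 82 in cKO replicates 1 to 3. The middle cKO library was thus the lowest of all 6, and the spread within cKO muscle was 7.81-fold in CPM. Col20a1 (0.19, adjusted p = 0.796 by edgeR) overlaps the span of the noncoding RNA 9230112E08Rik on the same strand, whose counts came to 64.3% of its own. Whether their exons share sequence was not examined, so the value of Col20a1 is uncertain. Col16a1, Col19a1 and Col9a2 had log2 fold changes of 0.05, 0.11 and 0.48, all with an adjusted p over 0.8.

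The transmembrane chains Col13a1 and Col25a1 act where nerve meets muscle. Col13a1, made by muscle fibres and needed for the maturation of the neuromuscular junction, stood at 2.17, 2.13 and 2.29 CPM in controls and at 2.12, 1.92 and 2.19 CPM in cKO muscle, a steady low level (log2 fold change -0.08 ± 0.24 SE, 95% interval -0.62 to 0.46, adjusted p = 0.951 by edgeR). Col25a1, which developing muscle needs for its innervation by motor axons, had 15, 15 and 13 counts in controls and 1, 12 and 6 counts in cKO replicates 1 to 3. Its groups did not overlap in CPM, but the difference of -1.13 ± 0.63 on the log2 scale (SE, 95% interval -2.56 to 0.30, adjusted p = 0.614) rests on a few counts a library, and it was -0.60 without cKO replicate 1, -2.01 without cKO replicate 2 and -1.60 with limma-voom. Col17a1 and Col23a1 were at 0.22 and 0.45 (adjusted p = 0.923 and 0.773). Among the last chains, Col7a1, which anchors epithelia, was at 0.39 (adjusted p = 0.747), with cKO replicate 1 at 16.1 CPM against 6.25 to 8.81 CPM in the other 5 libraries. Col26a1 was at -0.18, and Col28a1, found around peripheral glia, at 0.02, with means of 7.01 CPM in controls and 7.12 CPM in cKO muscle.

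Summed over each class, collagens varied up to 2.57-fold between control libraries. Fibrillar chains summed to 9666, 7311 and 3762 CPM in control replicates 1 to 3 and to 7818, 6139 and 5158 CPM in cKO replicates 1 to 3, with means of 6913 ± 2972 and 6371 ± 1345 CPM (SD, n = 3 each). Their share of a library's counts ran from 0.352% to 0.997%. Basement membrane chains summed to 2710, 2412 and 1851 CPM in controls and to 1884, 2858 and 2346 CPM in cKO muscle, with means of 2325 ± 436 and 2362 ± 487 CPM. The other chains came to 1487 ± 405 CPM in controls and 1383 ± 184 CPM in cKO muscle. In every class the groups overlapped, and the log2 ratio of the group means (cKO over control) was -0.12, 0.02 and -0.10. In each class the group means differed by less than the SD of either group. A sum over the chains was not tested.

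Libraries that were high or low in collagens were so across many chains. Control replicate 1 was the highest library for 18 of the 41 tested chains (43.9%), where it was highest for 18.2% of all genes tested. Control replicate 3 was the lowest for 19 chains (46.3%), against 20.1% of all genes, and for 9 of the 11 fibrillar chains. The median ratio of the highest to the lowest control library was 1.61 over the chains and 1.26 over all genes. In cKO muscle these medians were 1.51 and 1.27. The median SE of a log2 fold change was accordingly 0.24 for collagen chains and 0.16 for all genes, so that changes had to be larger to be detected in collagens than in most genes.

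Markers of the cells that make collagens differed between libraries as well. All 8 fibroblast markers were detected in every library, and their sum was 5296, 5372 and 3716 CPM in control replicates 1 to 3 and 6118, 4291 and 4138 CPM in cKO replicates 1 to 3. Most of the sum came from Gsn, which encodes gelsolin (2216 to 4184 CPM). Control replicate 3 was the lowest library for 5 of the 8 markers and cKO replicate 3 for the other 3, Pdgfra, Dcn and Fbln1. Endothelial markers, 6 of 6 detected, summed to 1309, 1268 and 1254 CPM in controls and to 858, 1424 and 1269 CPM in cKO muscle. The lowest and highest libraries of this sum, cKO replicates 1 and 2, were also the lowest and highest for Col4a1 and Col4a2. Each of the 6 markers was lowest in cKO replicate 1, but not all were highest in cKO replicate 2. Tek, Flt1 and Emcn were highest there, Pecam1 and Cdh5 in control replicate 1 and Kdr in control replicate 3. Macrophage markers, 5 of 5 detected, ran from 130 to 283 CPM in controls and from 168 to 244 CPM in cKO muscle. The part of these cells in the collagen values was not tested.

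**Figure D4:**
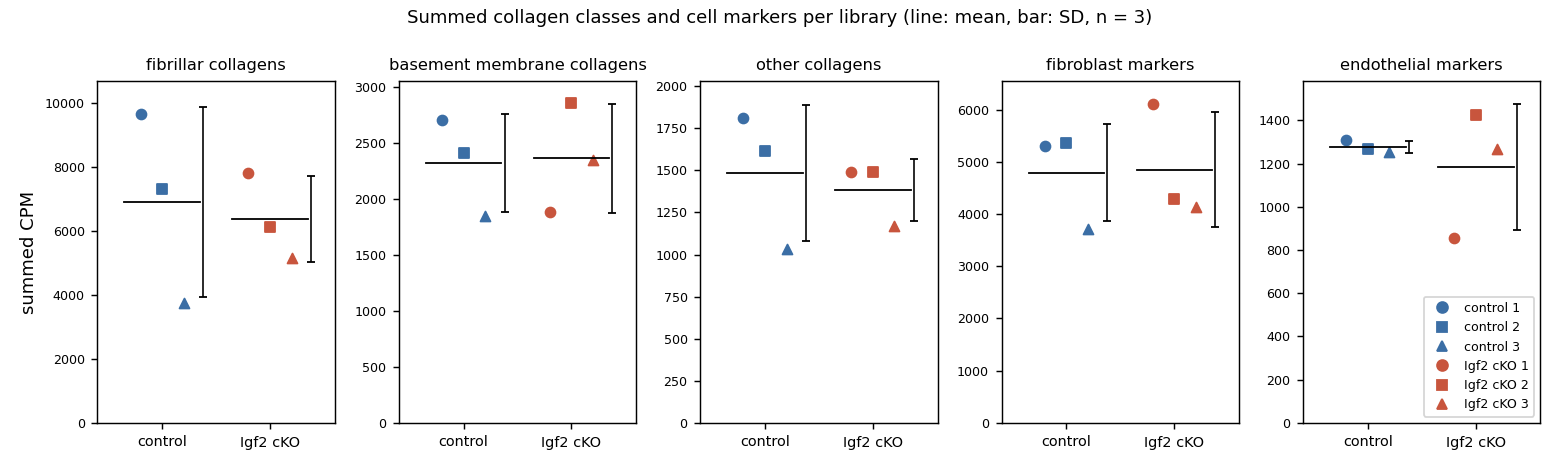
Summed CPM of the fibrillar, basement membrane and other collagens and of the fibroblast and endothelial marker lists in each library, with lines for the group means and bars for the SD of 3 libraries, on axes from 0. Fibrillar collagens run from 3762 to 9666 CPM among controls, a span that encloses all 3 cKO libraries. Basement membrane collagens and endothelial markers are both highest in cKO replicate 2. They differ in the lowest library, which is control replicate 3 for basement membrane collagens (1851 CPM) and cKO replicate 1 for endothelial markers (858 CPM).

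The ratio of the type I partner chains varied less than their levels. The FPKM ratio of Col1a1 to Col1a2 was 1.88, 1.81 and 1.75 in controls and 1.80, 1.73 and 1.80 in cKO muscle, a 1.08-fold span over libraries in which each chain varied more than 2-fold. Col4a1 to Col4a2 ran from 1.28 to 1.43, Col5a1 to Col5a2 from 1.45 to 1.62, Col6a1 to Col6a2 from 1.94 to 2.21 and Col6a3 to Col6a2 from 0.53 to 0.681. The last of these ran from 0.531 to 0.681 among cKO libraries alone. The groups overlapped in all 5 ratios. The absolute ratios depend on the length by which the authors divided. Col1a2 is listed at 12426 bases, 2.32 times its longest coding transcript in GENCODE M21 (5348 bases), and Col1a1 at 6563 bases, 1.11 times its own (5930 bases). Per kilobase of the longest coding transcript, an alternative chosen after seeing the data, the type I ratio ran from 0.825 to 0.893, on the other side of 1, and Col3a1 rather than Col1a1 was the most abundant chain (404 against 304 CPM per kilobase on average).

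Among genes listed for the folding and modification of collagen, most log2 fold changes lay above 0, without a call. Of 19 tested genes of the list, 15 lay above 0 and 4 below, 0 were called by edgeR, 3 had an unadjusted p under 0.05, all higher (5.11% of all genes tested were higher at that p), and the median was 0.18 against 0.00 for all genes. The highest were P4ha1 and P4ha2, catalytic subunits of the prolyl hydroxylase that stabilises the collagen helix, and Serpinh1 (HSP47), the chaperone of procollagen. P4ha1 had 60.8, 60.1 and 55.5 CPM in controls and 80.5, 92.7 and 85.8 CPM in cKO muscle (log2 fold change 0.55 ± 0.09 SE, adjusted p = 0.081 by edgeR). P4ha2 averaged 28.5 ± 2.09 CPM in controls and 40.6 ± 2.40 CPM in cKO muscle (SD, n = 3 each, 0.51 ± 0.10 SE, adjusted p = 0.111). Serpinh1 was at 231 ± 44.8 and 342 ± 54.5 CPM (0.57 ± 0.18 SE, adjusted p = 0.32). In these 3 genes every cKO library lay above every control (groups apart in that direction in 7.83% of all genes tested). DESeq2, which called 1.35% of all genes, called P4ha1 (adjusted p = 0.000661) and P4ha2 (adjusted p = 0.015). So did edgeR with no filter on low counts, which called 282 genes, against 37 with the filter. The lysyl hydroxylase genes Plod1, Plod2 and Plod3 were at 0.28, 0.37 and 0.23, with adjusted p of 0.588, 0.575 and 0.631.

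No gene of the later steps was called by edgeR. Of 11 tested genes for secretion and propeptide removal, 2 lay above 0 and 9 below, with a median of -0.08 and 0 calls by edgeR, and none had an unadjusted p under 0.05. Tll1, a procollagen proteinase, was at -0.63 ± 0.31 and Adamts14, which removes amino-terminal propeptides, at 0.41 ± 0.29 (SE, adjusted p = 0.566 and 0.707). Without control replicate 1 these became -0.24 and 0.70. Every cKO library lay below every control for Tll1 (7.67% of all genes tested), but narrowly, with cKO replicate 1 at 5.41 CPM and control replicate 2 at 5.43 CPM. Crosslinking genes had 0 calls and none with an unadjusted p under 0.05 among 6 (median -0.05), with the lysyl oxidase relative Loxl4 at -0.51 and Pxdn, the peroxidase that crosslinks type IV collagen, at -0.27 (adjusted p = 0.563 and 0.709 by edgeR).

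Among 12 tested genes of degradation and its inhibitors, 0 were called by edgeR and 3 had an unadjusted p under 0.05, where 9.93% of all genes did (median -0.06). Timp4, a metalloproteinase inhibitor, averaged 81.0 ± 16.7 CPM in controls and 131 ± 9.37 CPM in cKO muscle (SD, n = 3 each, log2 fold change 0.69 ± 0.15 SE, adjusted p = 0.171). DESeq2, which called 1.35% of all genes, gave Timp4 an adjusted p of 0.00549. Timp3, an inhibitor bound to matrix, was at 0.39 ± 0.13 (adjusted p = 0.358). The fibroblast protease gene Fap was at -0.52 ± 0.12 (SE, adjusted p = 0.177), with 26.8 ± 3.34 CPM in controls and 18.7 ± 1.18 CPM in cKO muscle. For each of these 3 genes the groups did not overlap (15.5% of all genes tested). With no low-count filter, where 282 genes were called in all, Timp4 and Fap were among them (adjusted p = 0.00651 and 0.0397). Collagen receptors had 0 calls among 10 tested genes (median -0.07), 1 with an unadjusted p under 0.05 (9.93% of all genes), with Lair1, an inhibitory receptor of leukocytes, at -0.80 ± 0.32 (adjusted p = 0.452) and the integrin gene Itga2 at -0.46 ± 0.23 (adjusted p = 0.576).

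TGF-β is the main inducer of collagen genes, and 13 genes of its signalling were reported. By edgeR 0 of the 13 were called, 8 lay above 0 and 5 below, with a median of 0.03, and 2 had an unadjusted p under 0.05, both higher (5.11% of all genes). Ctgf, a matricellular protein induced by TGF-β and by mechanical load, averaged 67.2 ± 19.9 CPM in controls and 115 ± 29.9 CPM in cKO muscle (SD, n = 3 each, log2 fold change 0.78 ± 0.24 SE, adjusted p = 0.324 by edgeR), with overlapping groups. It was called with no low-count filter (adjusted p = 0.0135), where 282 genes were called in all. Smad3, which carries the signal to the nucleus, was at 0.21 ± 0.09 (adjusted p = 0.49). The ligand genes Tgfb1, Tgfb2 and Tgfb3 were at -0.15, -0.17 and 0.01. Smooth muscle and pericyte markers, 6 of 6 detected, summed to between 1574 and 1716 CPM in controls and between 1583 and 1947 CPM in cKO muscle, and most of that sum was Rgs5 (882 to 1198 CPM). For 3 of the 6, Acta2, Myh11 and Notch3, every cKO library lay above every control (7.83% of all genes), with log2 fold changes of 0.80, 0.34 and 0.17 (adjusted p = 0.0956, 0.348 and 0.608 by edgeR). The part of these cells in the values of Ctgf was not tested.

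**Figure D5:**
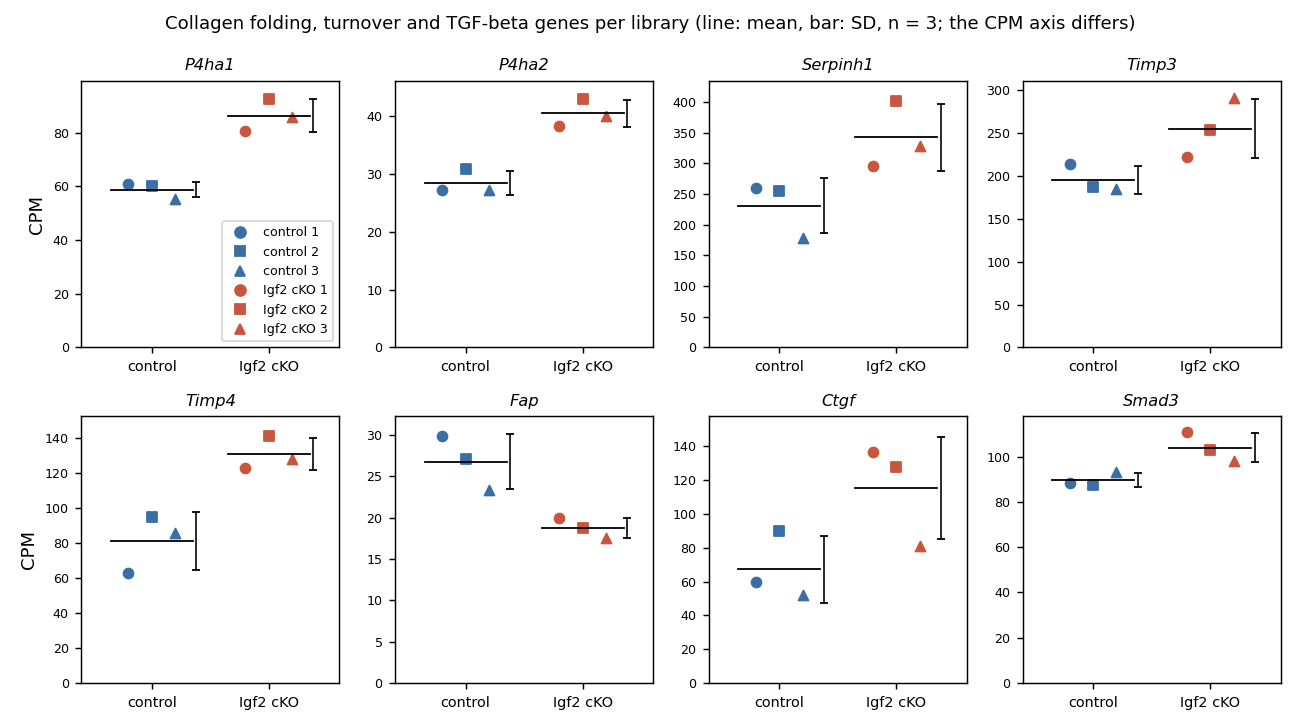
CPM of 8 genes of collagen folding, turnover and TGF-β signalling in each library, each panel with its own axis from 0; lines are group means and bars the SD of 3 libraries. The groups are apart in P4ha1 (55.5 to 60.8 CPM in controls and 80.5 to 92.7 CPM in cKO muscle), P4ha2, Serpinh1, Timp3, Timp4, Fap and Smad3 but not in Ctgf, and none of the 8 was called by edgeR at an adjusted p under 0.05. All 8 had an unadjusted p under 0.05 by edgeR, which favours groups that lie apart. Over the 71 pathway genes tested, the groups were apart in 6 higher and 2 lower (7.83% and 7.67% of all genes tested).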

How the data were processed

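Per the labels' protocols, RNA was isolated with Trizol, and Novogene ran the libraries on a NovaSeq instrument. Aligner, counter, strand setting and build were not given in the sources used here. The authors deposited, per the file headers, a read count and an FPKM value for every gene in every library. A further 6 per-sample columns, which belong to the authors' comparisons of single cKO and control libraries, were left aside. Start and end were the same in GENCODE M21 (GRCm38) for 53585 of 54495 identifiers found there (98.3%), and for all 44 members.

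Counts were tested with edgeR 4.0.16 in R 4.3.3 (quasi-likelihood F test, TMM, filterByExpr, genotype as the single term), with Benjamini-Hochberg adjustment over the 14867 genes tested. CPM values use the TMM library sizes. SEs come from the F statistic. Groups and replicate numbers come from the sample titles. Beyond a group size of 3 mice nothing says that the libraries came from separate animals, so p-values measure the spread between these samples. Levels between genes were compared on the deposited FPKM.

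Members and lists were chosen with earlier results of these data known. In full were given chains called or with an unadjusted p under 0.05, the 4 most abundant per class, partner chains, and Col22a1, Col13a1, Col25a1, Col15a1 and Col18a1. Of each pathway list, genes called or with an unadjusted p under 0.05 (up to 6 by p), or the 2 with the lowest p where there were fewer, were named. Further genes (Plod1 to Plod3, Tgfb1 to Tgfb3) and chains were named after their values were seen. On simulated counts for 14867 genes (this comparison, 200 changed), the fit called 13.4% of 67 genes changed 1.5-fold, 74.6% of 67 changed 2-fold and 90.9% of 66 changed 4-fold. Alternatives were other size factors, library sizes without mitochondrial DNA genes, other filters, DESeq2 1.42.0, limma-voom (limma 3.58.1), a replicate block, other thresholds and leaving out each library. The result of 1 gene of the pathway lists is not reported here, and list counts and medians leave it out.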

Additional observations from a re-analysis of the deposited data

How the results depend on the processing

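No collagen chain was called under any of the alternatives run except Col6a6 with no filter on low counts, where 1 chain was called. Class medians and totals moved by less than the spread between replicates, but leaving out 1 library could turn their sign. The fibrillar median (0.15) was -0.10 without control replicate 3, -0.15 without cKO replicate 1 and 0.30 without control replicate 1, and the basement membrane median (-0.20) ran from -0.32 to -0.03. The log2 ratio of totals ran from -0.41 to 0.20 for fibrillar, -0.14 to 0.16 for basement membrane and -0.31 to 0.06 for other chains. With 3 libraries a group and the spread of collagens, many changes under 2-fold, and some of 2-fold or more, would go undetected. The simulated counts, of which 74.6% of 2-fold changes were called, had the spread of all genes. Collagens had a larger median SE (0.24 against 0.16). Of the 71 pathway genes tested and reported, 0 were called by edgeR and 9 had an unadjusted p under 0.05 (9.93% of all genes did). The count called became 3 with DESeq2 (1.35% of all genes) and 1 at an adjusted p under 0.1 (0.417%). It became 5 with no low-count filter, a fit for which the share of all genes was not worked out. The count was 0 with the replicate block and whichever library was left out. Over all genes 37 were called, 282 with no low-count filter, 203 with DESeq2, 62 at an adjusted p under 0.1, 235 by the rule the series states, and from 8 to 68 when each library in turn was left out (controls 1, 2 and 3 gave 8, 15 and 13, cKO 2 and 3 gave 68 and 17).

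Whether replicate numbers pair the samples could not be decided, because all correlations were small and there were 3 libraries a group. Deviations from the group means of same-numbered libraries correlated at 0.16, 0.06 and -0.04 over the tested genes. Control replicates 1 and 2 correlated best with their own number (at most 0.04 and 0.01 with another), and control replicate 3 with cKO replicate 2 (0.12). With the replicate block, 35 genes were called over all genes, 0 collagen chains, and the Col1a1 log2 fold change was 0.05.

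The sign of 10 of the abundant chains, all uncalled, was not fixed. For Col1a1 it was positive with limma-voom (0.06), and with 1 library left out it ran from -0.31 to 0.30. The same ranges were -0.26 to 0.31 for Col1a2, -0.69 to 0.02 for Col3a1, -0.30 to 0.17 for Col5a1, -0.32 to 0.10 for Col5a2, -0.20 to 0.16 for Col4a1, -0.10 to 0.19 for Col4a2, -0.13 to 0.20 for Col18a1, -0.34 to 0.05 for Col6a2 and -0.28 to 0.18 for Col6a3, which was 0.01 with limma-voom. The cause was not tested. Those of Col4a4 (-0.72 to -0.36), Col6a6 (-0.90 to -0.44) and Col8a2 (0.34 to 0.74) kept their sign in all 14 alternatives, as did the abundant chains Col6a1 (-0.38 to -0.02) and Col15a1 (0.06 to 0.36).

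Chain ratios changed with the length used, as their construction requires. Control means per kilobase of the longest coding transcript, and with no length, were 0.863 and 0.957 for Col1a1 to Col1a2 (1.81 in FPKM), 1.04 and 1.31 for Col5a1 to Col5a2 (1.48), 1.53 and 1.57 for Col4a1 to Col4a2 (1.39), 1.29 and 1.13 for Col6a1 to Col6a2 (2.16), and 0.372 and 0.808 for Col6a3 to Col6a2 (0.562). These were chosen after seeing the data.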

Other observations

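Chain pairs outside the planned ratios were also followed. The ratio of Col5a3 to Col5a1 in FPKM was 0.845, 0.923 and 1.00 in control replicates 1 to 3 and 1.08, 1.02 and 1.07 in cKO replicates 1 to 3. With that of Col6a6 to Col6a3, it was 1 of the 2 whose groups did not overlap among the 10 looked at after the values were seen, and neither was tested. Col3a1 to Col1a1 was 0.909 ± 0.0747 in controls and 0.75 ± 0.12 in cKO muscle (SD, n = 3 each), with overlapping groups.

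Schwann cell and adipocyte markers differed between libraries within each genotype. Schwann cell markers summed to 494, 163 and 339 CPM in controls and to 840, 484 and 192 CPM in cKO muscle. Adipocyte markers summed to 134, 90.4 and 23.3 CPM in controls and to 95.3, 34.0 and 325 CPM in cKO muscle. Control replicate 3, the library lowest in most fibrillar chains, was also the lowest in adipocyte markers and in macrophage markers (130 CPM). It was the lowest in the fibroblast, smooth muscle and cartilage sums too. The Schwann cell, endothelial, tenocyte and muscle fibre sums were each lowest in another library. The part of these cells in the collagen values was not tested.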
